A study of Fragaria x ananassa with 6 samples.

Results

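The genes described here encode enzymes that cut pectin, and 4 genes of the array belong to this set of 35116 gene names. They were picked by identifier: gene21638 (FaPG1, a polygalacturonase), gene01127 (exopolygalacturonase-like), gene31030 (FaRGlyase1, a rhamnogalacturonate lyase) and gene23429 (described as pectin lyase-like, and named a pectate lyase in the study's text). Transcripts were measured in ripe receptacles of strawberry (Fragaria x ananassa), the swollen flower base that forms the fleshy fruit. Fruits attached to the plant were injected with Agrobacterium tumefaciens that carried either pFRN-FaPRE1, an RNAi construct directed against the atypical HLH gene FaPRE1 (RNAi receptacles), or the empty pFRN vector (control receptacles). The comparison asks which transcripts differ when FaPRE1 is silenced in the ripe fruit. There were 3 control and 3 RNAi samples on 3 arrays of 2 colours, with 1 sample of each group on every array and the RNAi sample in Cy3 on replicates 1 and 3 and in Cy5 on replicate 2. Both groups therefore carry the injection and the bacterium, and the silencing was transient, in injected fruits and not in a stable line. The study's methods describe samples as pools of fruits from which the achenes, the seed-bearing dry fruits on the surface, were removed. One label of the RNAi samples calls them overexpressing and the extraction label speaks of floral buds; the titles, sources and descriptions, which all give fruits with the RNAi construct, were followed here.

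Pectin is the gel of galacturonic acid chains that fills the space between plant cells and holds neighbouring walls together. In ripening strawberry the gel is loosened and the fruit softens. Polygalacturonases hydrolyse the backbone of homogalacturonan after its methyl groups have been removed by pectinesterases, and the exo-acting forms release sugars from the chain end. Pectate and pectin lyases break the same backbone by elimination, without water. Rhamnogalacturonate lyases cut the branched part of pectin, rhamnogalacturonan I, in which rhamnose alternates with galacturonic acid. Polygalacturonase and rhamnogalacturonate lyase genes are known in strawberry for their part in softening of the ripe receptacle, whereas members of the lyase families also act in growing tissue.

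The sequences that the study used to follow 2 of these genes apart from the array were its quantitative PCR primers. They are shown because they identify the transcripts behind the names FaPG1 and FaRGlyase1, and each is written 5′ to 3′.
FaPG1 forward: aattctcaaagaccaaacgtg
FaPG1 reverse: taactctacttggcgttgtt
FaRGlyase1 forward: ccttgatccgtacactatgg
FaRGlyase1 reverse: atccaacataagccgaactt
The FaPG1 primers have 21 and 20 bases and both FaRGlyase1 primers have 20. The array probes are other molecules, each a longer oligonucleotide printed in 1 spot for gene21638 and gene23429 and in 2 spots for gene01127 and gene31030. Their letters were not used here, so hybridisation of a probe to transcripts of related genes was not tested.

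Values below are of 3 kinds. A raw signal is the median brightness of a spot as scanned. A normalized signal is the log2 signal of a sample after background correction and scaling between dyes and arrays, and a log2 ratio is the RNAi over the control signal within an array, averaged over 3 arrays, so that 1 unit is a doubling and negative values are lower in RNAi. Loess sets the typical gene of an array near 0, so a ratio is a change against that gene. The threshold for calling a gene was an adjusted p of 0.05 in limma (Benjamini-Hochberg over 21101 genes tested), and n is 3 arrays throughout.

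Over all genes, 34.8% were called, with 17.9% lower and 16.9% higher in RNAi, so a call by itself is common in these data. Of the 4 pectin-degrading enzyme genes, 3 were called lower and 1 higher. The study had already picked these genes on the same samples, and their count is therefore a description. The same holds for the lack of overlap between groups given below. The share of all genes whose groups do not overlap was not computed. Samples resembled their own group most: 2 controls correlated over the genes at 0.963 or more and 2 RNAi samples at 0.992 or more, while a control and an RNAi sample reached 0.940 at most. Spots well above background made up 60.7 to 72.7% in control samples and 44.1 to 60.4% in RNAi samples. Against 10 spike-in probes, control RNAs added at labelling, the bulk signal of the genes stood at -2.09 in RNAi relative to control on the log2 scale (-2.10 in Cy3 and -2.09 in Cy5). Values given below against the spike-ins, or under spike-in scaling, are the loess ratios with this 1 constant added. Another scale need not move every gene equally. Median centring in place of loess moved FaPG1 from -3.65 to -5.17, but gene00562, a dim polygalacturonase, only from 0.07 to 0.06. Fewer cells of a type and less RNA per cell cannot be told apart in such samples. The targeted gene had 2 probes. The one the array itself names FaPRE1, added here after its values were seen, was called lower, at -0.49, -0.54 and -0.53 on the arrays of replicates 1, 2 and 3 (mean -0.52, SE 0.11, limma adjusted p = 0.015), the direction the RNAi labels give. That call was lost without replicate 2 (adjusted p = 0.056), without replicate 3 (adjusted p = 0.10) and with the scanner software's processed signals (-0.58, adjusted p = 0.060). It was also lost with median centring in place of loess (-2.05, adjusted p = 0.059) and with a t-test on the signals per sample (adjusted p = 0.092). The other, gene30478, which the study takes as FaPRE1, was at -0.33 (SE 0.17, limma adjusted p = 0.18) and was not called, but was called with the processed signals (-0.78, adjusted p = 0.048). The study also followed FaPRE1 in pools of RNAi receptacles by quantitative PCR, which is not part of these array data.

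FaPG1 showed the largest fall of the 4 genes. The gene encodes a polygalacturonase of ripe strawberry fruit. In control samples 1, 2 and 3 its raw signal reached 128600, 105600 and 259200, but in the RNAi samples of the same numbers 2362, 6162 and 1375, over a local background of 35 to 75. Every control sample was far above every RNAi sample, and the RNAi samples still lay well above background, at 39.3 to 90.6 times it. No spot was saturated. The normalized signals were 15.72, 16.57 and 16.16 in the controls and 12.55, 12.69 and 12.25 in RNAi. The groups were separated by 3.03 log2 units at their nearest samples, against an SD of 0.42 within the controls and 0.22 within RNAi.

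**Figure D1:**
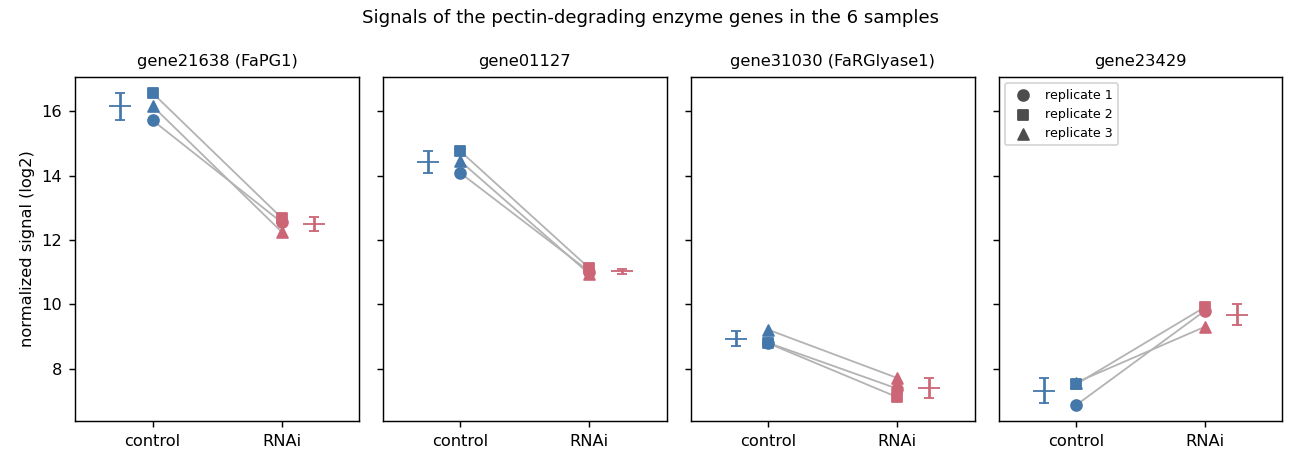
Normalized log2 signal (vertical axis) of the 4 pectin-degrading enzyme genes in control (blue) and RNAi (red) receptacles, with 1 point per sample, lines joining samples of an array and bars giving the mean and SD. RNAi lay 3.03, 2.97 and 1.08 log2 units below the nearest control for FaPG1, gene01127 and gene31030, and 1.74 above it for gene23429. How often groups separate in this way among all genes was not computed.

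On the arrays of replicates 1, 2 and 3 the log2 ratio of FaPG1 was -3.17, -3.88 and -3.91. The mean of -3.65 (SE 0.18, 95% interval -4.09 to -3.22, limma adjusted p = 0.00034) is a 12.6-fold lower signal in RNAi. The array with the smaller fall, replicate 1, differed from the largest by 0.74. Among all genes tested, FaPG1 had the 13th lowest ratio. Only 34 genes of 21101 were lower by more than 3 log2 units.

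The second polygalacturonase, gene01127, fell with it. This gene is described as exopolygalacturonase-like, the same description as that of gene21638. Raw signals of its 2 spots averaged 41080, 31340 and 80920 in the controls of replicates 1, 2 and 3, and 824.2, 1977 and 557 in RNAi. As with FaPG1, control and RNAi samples did not overlap, and the RNAi signals were 14.9 to 29.3 times background. Normalized signals were 14.08, 14.76 and 14.45 in controls and 11.02, 11.12 and 10.94 in RNAi, with an SD of 0.34 and 0.09. The log2 ratio was -3.07, -3.64 and -3.51 on the 3 arrays, with a mean of -3.41 (SE 0.15, 95% interval -3.77 to -3.04, limma adjusted p = 0.00031), or 10.6-fold lower. Its 2 spots differed little, giving -3.13 and -3.01 on the array of replicate 1, where they lay farthest apart.

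On each of the 3 arrays the ratio of FaPG1 was below that of gene01127. The ratio of FaPG1 minus that of gene01127 was -0.10, -0.24 and -0.40 on the 3 arrays (mean -0.25, 95% interval -0.61 to 0.12), so a difference between their falls was not shown, and the interval allows FaPG1 to have fallen by up to 0.61 more. In both genes the fall was smallest on replicate 1, and control sample 2 had the highest normalized signal and control sample 1 the lowest. Of 1382 other tested genes with a description, gene01127 had the 6 signals most like those of FaPG1 after each gene was centred on its own mean, with a root mean square difference of 0.16 log2 units, and FaPG1 was in turn the nearest to gene01127.

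The next nearest to FaPG1 were gene16428, described as an acyl carrier protein-like gene of the chloroplast (0.26, with a log2 ratio of -3.26), and gene30780, described as codeine O-demethylase-like (0.29, ratio -3.999). Those next to gene01127 were gene34259, described as a reverse transcriptase of a retroelement (0.22, ratio -3.31), and gene04128, described as the beta subunit of anthranilate synthase, an enzyme of tryptophan synthesis (0.24, ratio -3.01). With 6 samples in 2 groups, this likeness is set largely by how much a gene fell.

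**Figure D2:**
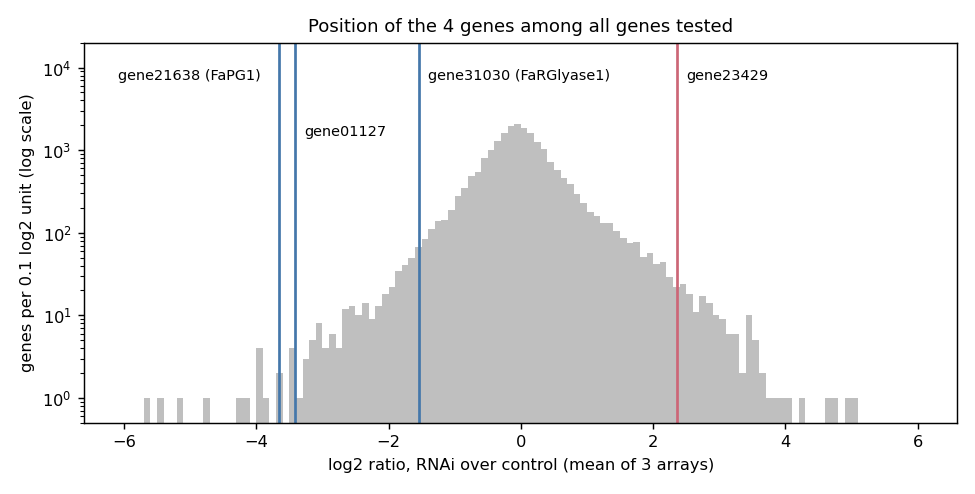
Number of genes per 0.1 log2 unit (vertical axis, log scale) against the log2 ratio of RNAi over control (horizontal axis), for 21101 genes tested, with lines at the 4 pectin-degrading enzyme genes. The polygalacturonases at -3.65 and -3.41 lie at the lower edge of the distribution, gene31030 at -1.53 on its lower slope and gene23429 at 2.36 on its upper slope.

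FaRGlyase1 (gene31030), which cuts the branched pectin rhamnogalacturonan I, was also lower in RNAi receptacles. Raw signals of its 2 spots averaged 875, 420.8 and 1916 in the controls of replicates 1, 2 and 3, and 69.5, 111 and 59.75 in RNAi. All control samples were well above background, at 12.1 to 27.3 times it, but the RNAi samples lay at 1.69 to 1.99 times background and only 1 of 3 counted as well above it. Normalized signals were 8.80, 8.79 and 9.21 in controls and 7.38, 7.11 and 7.71 in RNAi, without overlap. The log2 ratio was -1.43, -1.68 and -1.50 on the 3 arrays, with a mean of -1.53 (SE 0.11, 95% interval -1.82 to -1.25, limma adjusted p = 0.00096), or 2.90-fold lower, and 330 genes were at or below it. The gene passed the filter on dim probes through its control signals alone. Its mean, interval and rank therefore rest on RNAi signals near background and do not measure the full size of the fall.

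The size of this fall depended on how faint signals were treated. The background correction adds an offset of 50 to each signal, which pulls ratios of dim spots toward 0, and with the scanner software's processed signals the log2 ratio of gene31030 was -3.39 (adjusted p = 0.0017), about that of gene01127 in the same signals (-3.49). In the setting reported here FaPG1 fell by 2.12 log2 units more than gene31030 (95% interval -2.96 to -1.28), a gap that narrowed with the processed signals, in which FaPG1 stood at -3.79.

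**Figure D3:**
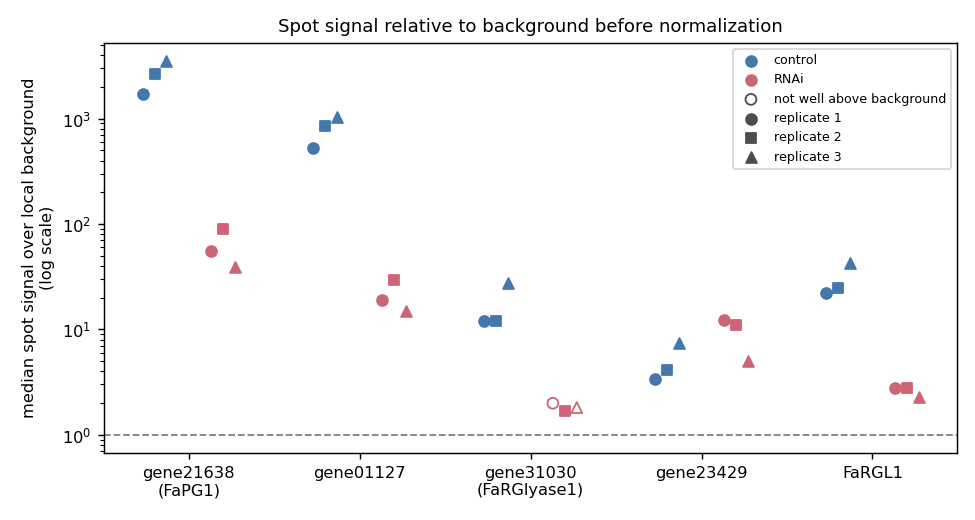
Median spot signal divided by local background (vertical axis, log scale, dashed line at 1) before normalization, for the 4 genes and the probe that the array names FaRGL1, with 1 point per sample, control in blue, RNAi in red and open symbols where spots were not well above background. In RNAi receptacles the polygalacturonase spots stay at 14.9 to 90.6 times background, whereas gene31030 drops to 1.69 to 1.99 and FaRGL1 to 2.28 to 2.78.

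A second measure of a rhamnogalacturonate lyase was present under the array's own name FaRGL1, printed in 12 spots. It is not one of the 4 genes and was singled out from the array's names after the values were open to view. Its raw signal averaged 1634, 947 and 3254 in the controls of replicates 1, 2 and 3 and 109.2, 186.2 and 89.92 in RNAi, and all 12 spots were well above background in all 6 samples. Its log2 ratio was -1.50, -1.94 and -1.59 (mean -1.68, SE 0.13, limma adjusted p = 0.0011), or 3.20-fold lower, with an SD between spots of an array of 0.10 to 0.17. FaRGL1 minus gene31030 was -0.14 (95% interval -0.40 to 0.12), so both probes gave a fall of about the same size. With the processed signals FaRGL1 was at -2.36, a smaller fall than that of gene31030 in the same signals.

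The genes nearest to gene31030 over the 6 samples were gene07367, described as a calcium-binding EF hand gene (root mean square difference 0.10, log2 ratio -1.50), gene30679, described as a GTPase-activating protein of the ADP-ribosylation factor type (0.11, ratio -1.65), and gene20253, described as a developmentally regulated G-protein (0.12, ratio -1.54).

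The lyase-like gene23429 went the other way. Pectate and pectin lyases cut the unbranched backbone by elimination. Raw signals of its single spot were 235.5, 177 and 614 in the controls of replicates 1, 2 and 3 and 421.5, 774 and 237 in RNAi, all well above background, at 3.36 to 7.44 times it in controls and 5.04 to 12.4 times it in RNAi. In each dye the raw RNAi signals exceeded the raw control signals: 774 against 235.5 and 614 in Cy5, and 421.5 and 237 against 177 in Cy3. Normalized signals were 6.86, 7.51 and 7.57 in controls and 9.80, 9.92 and 9.30 in RNAi, and the groups did not overlap.

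The log2 ratio of gene23429 was 2.94, 2.40 and 1.74 on the 3 arrays, with a mean of 2.36 (SE 0.23, 95% interval 1.79 to 2.93, limma adjusted p = 0.0018), a 5.14-fold higher signal in RNAi, the 150th highest of all genes tested. Of the 4 genes it varied most between arrays, by 1.20. FaPG1 minus gene23429 was -6.02 (95% interval -6.84 to -5.19), a difference that a constant shift of the scale leaves as it is. The ratio of gene23429 itself moves with the scale. Against the spike-ins it stood at 0.27, near no difference, and with plain median centring of each array at 1.16 (adjusted p = 0.15), where it was not called. The other 3 genes were lower on each of these scales, at -5.75, -5.50 and -3.63 against the spike-ins for FaPG1, gene01127 and gene31030.

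The genes with the signals most like those of gene23429 were gene01554, described as a BTB/POZ domain gene (root mean square difference 0.15, log2 ratio 2.20), gene04435, described as expansin-A10, a wall-loosening protein (0.19, ratio 2.04), and gene32082, described as a probable polygalacturonase (0.21, ratio 2.47).

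A pectate lyase that the array names FaPLB, also noticed only after the values were open to view, did not follow gene23429. Its raw signals were 32500, 28930 and 80620 in the controls of replicates 1, 2 and 3 and 5270, 13040 and 3813 in RNAi. The log2 ratios were -0.04, -0.90 and -0.76 (mean -0.57, SE 0.19, limma adjusted p = 0.065), and FaPLB was not called, but without replicate 1 it stood at -0.83 (adjusted p = 0.0050). FaPLB minus gene23429 was -2.93 (95% interval -3.94 to -1.92).

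Other pectin genes were taken from the descriptions in the first 1679 genes of the study's table of the whole array, which follows the order of identifiers and not the results. Of 18 such genes, 7 were bright enough to test, 3 were called higher, 0 were called lower and 4 were not called, with a median log2 ratio of 0.29, beside -0.04 over all genes. With 42.9% called of 7 genes, beside 34.8% of all genes, the share is near the background. These counts leave out gene01127 (log2 ratio -3.41) and gene00616, a galacturonate reductase (-1.52). Both have identifiers in the same range and were called lower, but are described under other headings here. The absence of genes called lower therefore holds only for the list without them. The other 11 genes, among them all 7 pectinesterases of the list, did not pass the filter on dim probes.

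Of the 3 polygalacturonases tested in this list, only gene00558 was bright enough to show a fall like that of FaPG1 and gene01127. It was not lower in RNAi. The list had been drawn up without gene01127, whose identifier lies in the same range. The log2 ratios of the 3 polygalacturonases were 0.13 for gene00293 (adjusted p = 0.41), 0.29 for gene00558 (adjusted p = 0.12) and 0.07 for gene00562 (adjusted p = 0.66). None was called. Of these, gene00558, described as polygalacturonase ADPG2, had mean normalized signals of 10.25 in controls and 10.55 in RNAi, and was well above background in all 6 samples. gene00293 and gene00562, at 6.37 and 6.62 in controls, were well above background in 1 of 3 RNAi samples each. Polygalacturonases of the list that were too dim to test, gene00430 and gene01445, read 5.85 and 6.02 in controls. A fall of the size of FaPG1 could therefore not have been seen in gene00293 or gene00562.

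Proteins that act on polygalacturonase rather than on pectin were among the higher ones. gene00646, described as the beta subunit of polygalacturonase 1, a protein known from tomato to bind the enzyme in the wall, had normalized signals of 16.21, 16.00 and 16.62 in controls and 17.61, 17.56 and 17.45 in RNAi (log2 ratio 1.27, SE 0.17, limma adjusted p = 0.0042). gene00522, a polygalacturonase inhibitor, one of a class known in plants for blocking fungal polygalacturonases, was at 9.74, 10.96 and 11.03 in controls and 11.81, 11.85 and 11.83 in RNAi (log2 ratio 1.26, SE 0.26, limma adjusted p = 0.016). With plain median centring both turned to the other side of 0, at -0.19 and -0.30. The other inhibitor tested, gene00772, was at -0.31 (limma adjusted p = 0.13) and was not called, but with the processed signals it was called lower, at -1.26 (adjusted p = 0.013). gene00730, a galacturonosyltransferase-like gene of the enzyme family that adds galacturonic acid to growing pectin, was higher by 0.78 (SE 0.14, limma adjusted p = 0.011).

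A further 6 pectin genes came from the study's lists of selected genes, which were drawn up on these same samples, so their directions are no independent evidence. Of these, 5 were called higher and 1 lower, with a median log2 ratio of 2.23, or 0.13 against the spike-ins. The pectinesterases, which remove methyl groups and so open the chain to polygalacturonase and pectate lyase, were at 3.03 (gene12965, adjusted p = 0.00031) and 1.98 (gene02773, adjusted p = 0.0070). The pectin acetylesterases, which remove acetyl groups, were at 2.61 (gene22775, adjusted p = 0.00031) and 1.68 (gene12396, adjusted p = 0.0022). The probable polygalacturonase gene32082 was at 2.47 (adjusted p = 0.00070), with normalized signals of 8.002 to 8.26 in controls and 10.33 to 10.79 in RNAi, opposite to FaPG1.

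The fate of the released sugar was represented by D-galacturonate reductase, which in strawberry turns galacturonic acid toward vitamin C. The described gene00616 had a log2 ratio of -1.52 (SE 0.21, limma adjusted p = 0.0048) and the probe that the array names FaGalur, also chosen after its values were seen, one of -1.77 (SE 0.11, limma adjusted p = 0.00057). FaGalur had normalized signals of 15.37 to 15.91 in controls and 13.69 to 14.08 in RNAi.

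**Figure D4:**
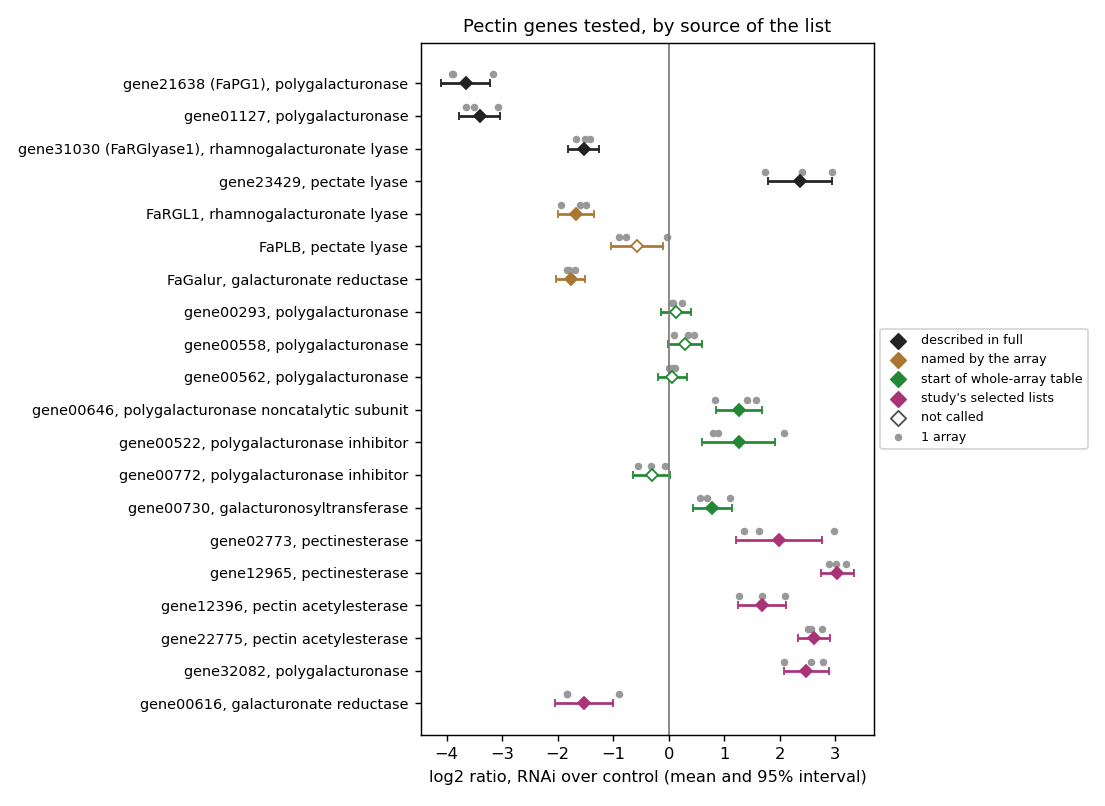
Log2 ratio of RNAi over control (horizontal axis, mean with 95% interval as a diamond and bar, open where not called, and grey points for single arrays) for each pectin gene tested, coloured by where it was listed. The polygalacturonases at -3.65 and -3.41, both rhamnogalacturonate lyase probes and both galacturonate reductases lie below 0, whereas gene23429, 5 genes from the study's selected lists and 3 from the start of the whole-array table were called above it.

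Markers of achenes and of the ripe receptacle also differed between the groups. Of 6 seed storage genes that mark achenes (4 legumins, an oleosin and a vicilin), 6 were higher in RNAi, by a median of 3.45, with a mean normalized signal of 10.17 to 10.43 in control samples and 13.85 to 14.00 in RNAi. The lowest of these, the vicilin gene29934, was at 6.36 in controls and 9.66 in RNAi. Of 4 genes that mark the ripe receptacle (MYB10, a regulator of fruit colour, a quinone oxidoreductase of furaneol synthesis and a pair of alcohol acyltransferases of ester aroma), 4 were lower, with a median log2 ratio of -2.98 and a mean normalized signal of 13.52 to 13.75 in controls and 10.64 to 10.82 in RNAi. The ratios of FaPG1 and gene01127 were of about the size of the ripe receptacle markers, which ran from -3.48 to -2.29 under the identifiers used. The probes that the array itself names Famyb10, FaQR, FaATT1 and FaATT2, added after their values were seen, were at -3.04, -3.19, -3.93 and -3.84. The ratio of gene23429 was below those of the achene markers, which ran from 3.30 to 4.63. The study had named the 4 ripe receptacle genes as lower in these same samples. The achene markers were chosen with earlier results of these data known. Both counts are therefore descriptions, beside 17.9% of all genes called lower and 16.9% called higher. The part of achene tissue or of the stage of ripening in the ratios of the pectin genes was not tested.

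The 4 genes kept their direction in each processing setting run. FaPG1 ranged from -5.17 to -3.53 and gene01127 from -4.95 to -3.29 over 15 settings, gene31030 from -3.39 to -1.46 over the 14 that gave it a value, and gene23429 from 1.16 to 3.096 over 15, the spike-in scale left aside. Plain median centring was the setting in which none of them was called, with adjusted p = 0.057 for the 3 that fell and 0.15 for gene23429, and no gene of the array was called there, although 9003 had an unadjusted p under 0.05. The study chose genes by a log2 ratio beyond 2 in either direction with a p of at most 0.05. The p was taken here from a t-test on the signals per sample, a test the methods do not tie to the arrays. FaPG1, gene01127 and gene23429 then passed among 410 genes (279 higher and 131 lower) and gene31030, at -1.53, did not. The study's own counts differ from these, and it names gene31030 among the genes lower in RNAi. The outcome for gene31030 depends on the signals used, since its log2 ratio of -3.39 with the processed signals lies beyond 2.

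**Figure D5:**
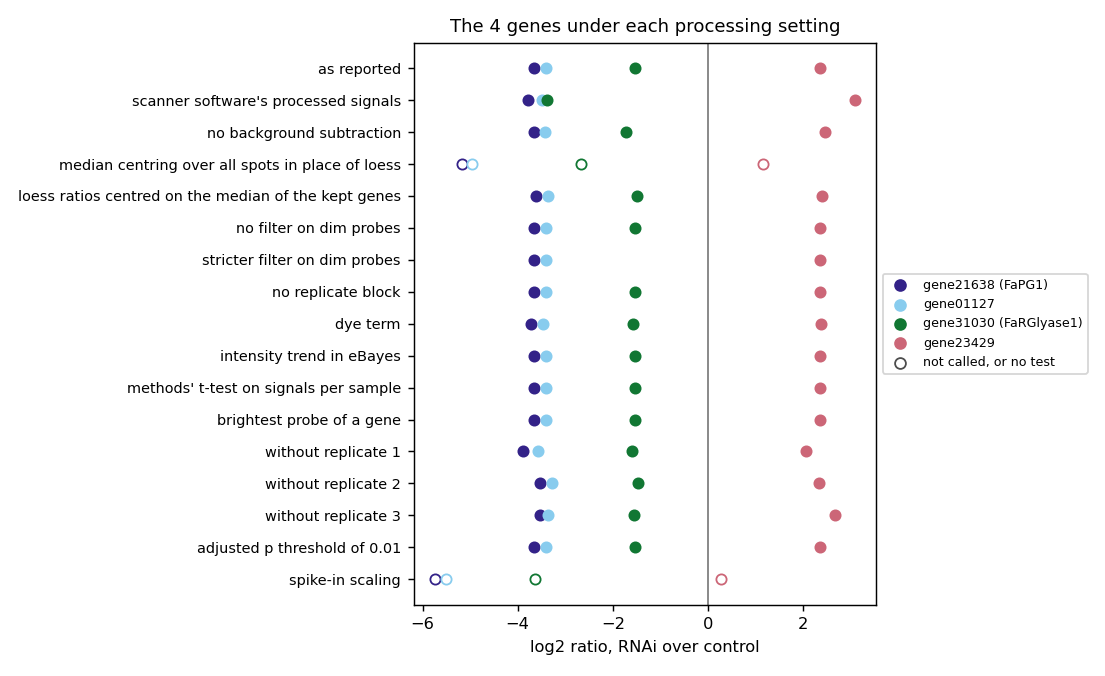
Log2 ratio of RNAi over control (horizontal axis) of the 4 genes under each processing setting (vertical axis), filled where called and open where not called or not tested. FaPG1, gene01127 and gene31030 stay below 0 and gene23429 above it in every setting shown, with gene23429 at 0.27 under spike-in scaling and gene31030 without a value under the stricter filter.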

How the data were processed

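The array of 60-mer oligonucleotides was scanned per channel, and the authors deposited spot intensity values made with Agilent Feature Extraction 10.7 per the labels: median spot and background signals, not normalized, and processed signals already corrected for background and dye. The flags for spots (coded 0 or 1) were also as deposited. With R 4.3.3 and limma 3.58.1, intensities were corrected by normexp (offset 50) and normalized by loess within each array, with control and outlier spots given no weight. Ratios were turned to RNAi over control and tested by lmFit and eBayes with Benjamini-Hochberg adjustment over all genes. Of 35335 probes, 21221 were kept, with at least 50% of a probe's spots well above background on all 3 arrays in 1 group's channel. Spots of a probe, then probes of a gene, were averaged. Signals per sample were scaled between arrays by Aquantile.

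Control and RNAi samples of a number share an array, which pairs them and acts as the block. Deviations from the group means, correlated within each number over the genes, gave 0.43, -0.04 and 0.17. All 3 arrays sat on 1 slide and scan, so no slide batch was fitted. The study's methods describe RNA from 3 independent pools of fruits, but do not state that the pools of a group came from separate plants. The p-values therefore measure the spread of the ratios within these arrays, with each gene's variance drawn toward that of all genes by eBayes. The number of arrays limits the precision.

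The genes, lists and rules were chosen with earlier results of these data known. Those named are the 4 genes, every tested gene of both pectin lists, FaPRE1, and for each of the 4 genes the 3 described genes with the nearest signals. FaRGL1, FaPLB, FaGalur and the array's FaPRE1, Famyb10, FaQR, FaATT1 and FaATT2 probes were added after the data were seen. Descriptions are those of the study, whose whole-array table was at hand only for its first 1679 genes, and its columns of fold changes and p-values were not used. The identifiers could not be matched to the reference table used here, so no coordinates are given.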

Additional observations from a re-analysis of the deposited data

How the results depend on the processing

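Median centring of each array over all spots in place of loess ended every call, from 7352 genes to 0, and gave log2 ratios of -5.17 for FaPG1, -4.95 for gene01127, -2.67 for gene31030, -3.02 for FaRGL1 and 1.16 for gene23429. It left the median of all genes at -1.07, -0.16 and -1.49 on the arrays of replicates 1, 2 and 3. Adding the spike-in constant to the loess ratios gave -5.75, -5.50, -3.63 and 0.27 for FaPG1, gene01127, gene31030 and gene23429, with no test. A threshold of 0.01 left 3422 genes. Leaving out 1 replicate gave 3458 to 7128 genes, -3.90 to -3.53 for FaPG1, -3.58 to -3.29 for gene01127, -1.59 to -1.46 for gene31030, 2.07 to 2.67 for gene23429 and -0.83 to -0.40 for FaPLB. The number of calls was 3458 without replicate 3 and 4307 without replicate 2. Without the replicate block, 7360 genes were called and no call of the 4 genes changed. The stricter filter gave no value for gene31030, since its RNAi spots were too dim, and left the calls of FaPG1, gene01127 and gene23429. All 4 genes kept their calls with processed signals, no background subtraction, centring on kept genes and no filter on dim probes. The same held with a dye term, an intensity trend, the methods' t-test and the brightest probe. The causes of these differences were not tested. In RNAi samples gene31030 lay near background, which limits its value.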
